A study of Mus musculus with 9 samples.

Results

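Matrix metalloproteinases (MMPs), ADAMTS proteases, ADAMTS-like proteins (ADAMTSL) and tissue inhibitors of metalloproteinases (TIMPs) were examined in 3 immortalized striatal cell lines derived from mouse embryos, a culture model of Huntington disease (HD). Genes were taken by symbol, namely those beginning with Mmp, Adamts, Adamtsl or Timp followed by a digit. The rule itself uses no measured value, but the family was chosen with earlier results of these data known. This gave 51 of the 36410 genes in the count table, made up of 23 Mmp, 19 Adamts, 5 Adamtsl and 4 Timp genes. Control cells (STHdhQ7/Q7) carry knock-in huntingtin exon 1 with 7 glutamine repeats on both alleles, HD-het cells (STHdhQ7/Q111) carry 7 repeats on 1 allele and 111 on the other, and HD-homo cells (STHdhQ111/Q111) carry 111 on both. The labels give all lines as striatal cells of strain C57/BL6, and each line was sequenced in 3 libraries of poly(A) RNA. There is 1 line per genotype, and the genotype and the history of the line cannot be told apart. The study states in general that experiments were repeated, but the labels do not say that the libraries of a line came from separate cultures, and p values therefore measure the spread between these libraries, which may be technical.

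MMPs are zinc-dependent endopeptidases that are made as inactive proenzymes and cut collagens, laminins, proteoglycans and many cell surface proteins. ADAMTS proteases are secreted relatives with thrombospondin repeats, several of which cut aggrecan and versican or trim procollagens, while ADAMTSL proteins have the repeats without the protease domain and bind the matrix. TIMPs bind the active site of these enzymes and keep them in check, and in the brain the balance of the classes shapes the perineuronal matrix, vessel walls and the response to injury.

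Libraries held 29507665 to 41197931 counts, and a count of 3, taken as the floor of detection, corresponded to 0.0710 to 0.101 normalized CPM (counts per megaread). Floors cover counting error only. The family took 0.282% to 0.319% of the reads in control, 0.514% to 0.545% in HD-het and 0.288% to 0.392% in HD-homo libraries. Of the 11 striatal projection neuron markers examined, 2 reached 1 CPM in control, 1 in HD-het and 2 in HD-homo libraries, and Drd1 and Pdyn had no read in any library. Of 6 neuron markers 3 reached 1 CPM in each line. Their sum, led by Map2, was 96.5 to 118 CPM in control, 111 to 117 in HD-het and 89.9 to 115 in HD-homo libraries. In the same order, microglia markers, led by Tmem119, summed to 12.0 to 15.6, 42.8 to 52.8 and 13.3 to 14.5 CPM. Aif1 and Adgre1, both microglia markers, had no read. Astrocyte markers, led by Slc1a3, summed to 2.46 to 2.67, 0.620 to 1.23 and 12.5 to 17.8 CPM. Of 4 smooth muscle markers, 4 reached 1 CPM in control, 4 in HD-het and 3 in HD-homo libraries, none of the 4 was at 0 throughout, and their summed level was 2313 to 2707 CPM in control, 6868 to 7530 CPM in HD-het and 96.9 to 181 CPM in HD-homo libraries. Of 8 fibroblast markers, 6 reached 1 CPM in each line, none was at 0 throughout, and the sum was 2567 to 3475, 7896 to 9115 and 6475 to 6998 CPM in the same order. This sum was led by Col1a1, while Col1a2 was at 73.4, 3.15 and 1494 CPM. All 5 neural progenitor markers reached 1 CPM in the control and HD-het lines and 4 did in HD-homo cells, none was at 0 throughout, and their sum, led by Vim, was 5900 to 6362, 5323 to 5827 and 4162 to 4578 CPM. Each of the 5 was called lower in HD-homo than in the control line, with Nes at 526 and 28.4 CPM, Sox2 at 128 and 5.48 CPM, and Pax6 at 32.1 and 0.132 CPM in control and HD-homo cells. The part of these differences between the lines in the results below was not tested, and in bulk RNA fewer cells of a kind and less RNA per cell cannot be told apart.

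HD-het cells were called the highest line for 20 of the 35 tested genes of the family (57.1%), where 22.7% of all tested genes had this pattern. Calls were frequent in the family and in the table as a whole. The count of genes highest in HD-het cells was not planned and was made after the data were seen. After the filter on low counts 35 of the 51 genes were tested (14 Mmp, 13 Adamts, 5 Adamtsl and 3 Timp genes) among 13508 genes in all, and a gene was called when the adjusted p of edgeR's quasi-likelihood test was under 0.05. In HD-het against control cells 27 of the 35 (77.1%) were called, 22 higher and 5 lower, where 65.1% of all tested genes were called, 33.8% higher and 31.4% lower. HD-homo against control cells gave 24 calls (68.6%), 10 higher and 14 lower, beside 58.6% of all tested genes, 29.6% higher and 28.9% lower. HD-homo against HD-het cells gave 30 calls (85.7%), 7 higher and 23 lower, beside 71.6% of all tested genes, 36.0% higher and 35.6% lower. In what follows, ± gives the SD over 3 libraries for a level or ratio and the SE for a log2 fold change. The median log2 fold change of the tested family genes was 0.81 in HD-het against control cells, -0.02 in HD-homo against control cells and -1.003 in HD-homo against HD-het cells, while that of all tested genes was 0.03, 0.01 and 0.00.

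Differences called and at least 2-fold were found for 19 of the 35 genes in HD-het against control cells, 14 in HD-homo against control cells and 23 in HD-homo against HD-het cells, where the shares of all tested genes were 18.4%, 19.1% and 24.3%. The level in HD-het cells was called higher than in both other lines for 20 of the 35 genes (57.1%), where 22.7% of all tested genes had this pattern. It was called lower than in both for 3 genes (Adamts1, Adamts5 and Mmp9), where 22.3% of all tested genes had that pattern, and it lay between the other lines with every comparison called for Mmp2 and Adamts7. Calls of opposite direction in the HD lines against control cells, which share the control libraries, were found for 10 of the 35 genes, beside 14.5% of all tested genes. A gene that is high in 1 line alone can pass the filter on low counts through that line, so the counts are not independent of the pattern. Among the 26 family genes with at least 10 counts in every library, 13 (50%) were called highest in HD-het cells, beside 22.2% of 11739 genes under the same filter. Lack of overlap between the libraries of 2 lines was common in the table. It held for 27 of the 35 genes in HD-het against control cells, 25 in HD-homo against control cells and 30 in HD-homo against HD-het cells, beside 74.0%, 65.3% and 72.8% of all tested genes. The plot of log2 fold changes gives every tested gene.

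**Figure D1:**
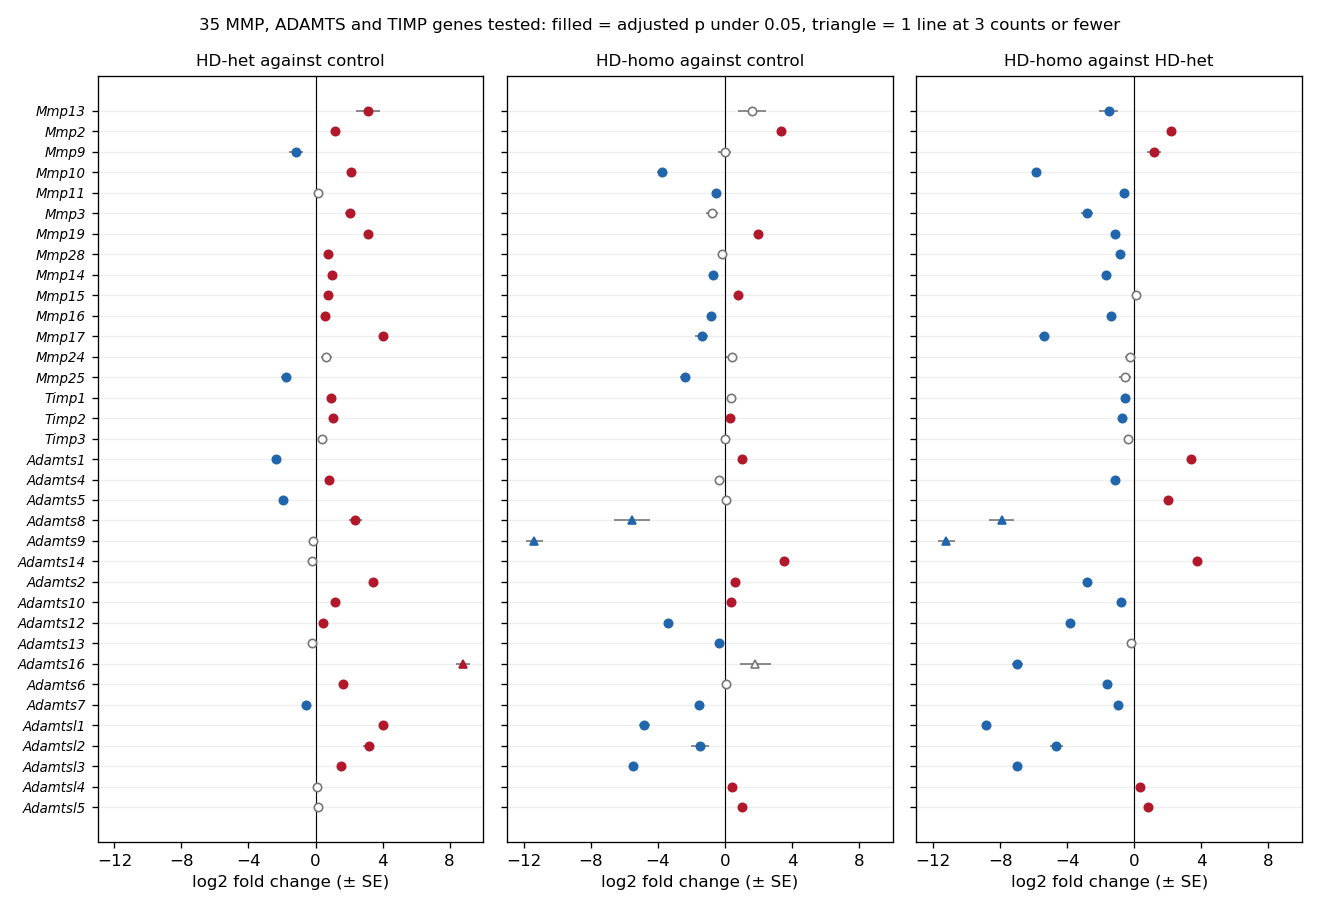
Log2 fold change with its standard error (x axis) of the 35 tested MMP, ADAMTS and TIMP genes (y axis, ordered by role) in the 3 comparisons of lines; filled red and blue points are called higher and lower at an adjusted p under 0.05, open points are not called, and triangles mark genes with 3 counts or fewer in every library of 1 line, for which the fitted size depends on the model's prior count. In HD-het against control cells 22 points are called to the right of 0 and 5 to the left, and in HD-homo against HD-het cells 7 are called to the right and 23 to the left.

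Per kilobase of the longest coding transcript, the inhibitors Timp1, Timp2 and Timp3 were the most abundant genes of the family in every line, followed by Mmp14. The summed Timp level was 764 ± 55.9 CPM per kilobase (SD, n = 3) in control, 1344 ± 83.4 in HD-het and 905 ± 183 in HD-homo libraries. The summed Mmp level was 132 ± 5.31 CPM per kilobase in control, 259 ± 13.1 in HD-het and 132 ± 8.30 in HD-homo libraries. Both classes were thus higher in every HD-het library than in any library of the other lines. Summed Timp over summed Mmp level was 5.78 ± 0.217 in control, 5.20 ± 0.464 in HD-het and 6.86 ± 1.12 in HD-homo libraries. An exact two-sided permutation test of this ratio gave p = 0.20 for HD-het against control cells, 0.10 for HD-homo against control cells and 0.10 for HD-homo against HD-het cells, and 0.10 is the smallest p that 3 libraries against 3 allow. The summed Adamts level was 26.5 ± 1.65, 35.6 ± 1.74 and 34.8 ± 5.43 CPM per kilobase in control, HD-het and HD-homo libraries, and the summed Adamtsl level was 30.4 ± 1.91, 73.1 ± 7.70 and 18.5 ± 1.84. As a fold, the Adamtsl sum had the widest range of the 4 classes. Adamtsl3 made up most of it in control and HD-het cells, at 19.0 and 54.6 CPM per kilobase, beside 0.423 in HD-homo cells. Adamtsl1 and Adamtsl2 had the same order of the lines, while Adamtsl4 and Adamtsl5 were highest in HD-homo cells.

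**Figure D2:**
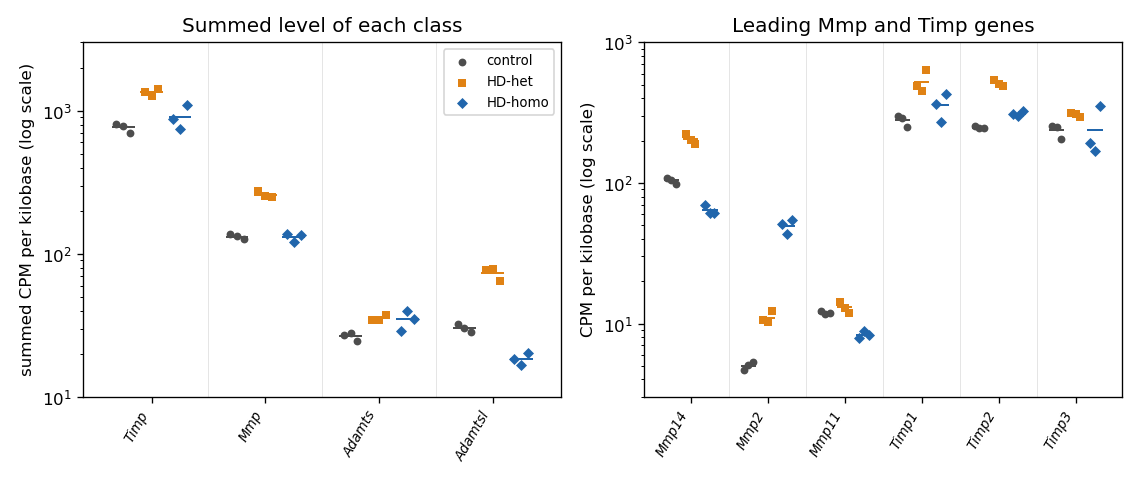
Summed level of the Timp, Mmp, Adamts and Adamtsl genes (left) and level of the leading Mmp and Timp genes (right) in CPM per kilobase of the longest coding transcript, on log axes; points are libraries (n = 3 a line) and dashes are means. The summed Mmp level averages 132 in control, 259 in HD-het and 132 in HD-homo cells, while Mmp2 averages 4.998, 11.04 and 49.7.

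Timp2, an inhibitor that also forms the complex in which MMP-14 activates pro-MMP-2, read 942, 910 and 906 CPM in control, 2008, 1861 and 1823 CPM in HD-het and 1150, 1112 and 1198 CPM in HD-homo libraries. The lines did not overlap, with HD-het highest and control lowest. It rose 2.06-fold in HD-het against control cells (log2 1.05 ± 0.06 SE, edgeR adjusted p = 1.2e-07) and 1.25-fold in HD-homo against control cells (log2 0.33 ± 0.06, edgeR adjusted p = 0.00077). Timp1, an inhibitor of most secreted MMPs, averaged 247 ± 21.6 CPM in control, 464 ± 88.0 in HD-het and 314 ± 68.8 in HD-homo cells. It rose 1.88-fold in HD-het cells (edgeR adjusted p = 0.00044) and had log2 0.34 ± 0.16 in HD-homo against control cells (edgeR adjusted p = 0.085), which became 0.50 (edgeR adjusted p = 0.0084) without HD-homo replicate 2. Timp3 binds to the matrix and inhibits ADAMTS and ADAM enzymes as well as MMPs. Its level was 1117 ± 131 CPM in control, 1447 ± 47.6 in HD-het and 1126 ± 470 in HD-homo cells, and it passed the test in no comparison. HD-homo replicate 3 stood apart with 1665 CPM beside 913 and 801 in the other libraries of that line. Without it Timp3 had log2 -0.38 in HD-homo against control cells (edgeR adjusted p = 0.0067) and -0.76 against HD-het cells (edgeR adjusted p = 4.5e-05), and it was called higher in HD-het than in the control line (edgeR adjusted p = 0.0029). Timp4, an inhibitor known from heart and brain, had no read in any library. Timp1, Timp3 and Timp4 lie inside the synapsin genes Syn1, Syn3 and Syn2 on the opposite strand. Exons of Syn3 overlap 21.3% of the Timp3 exon bases, and Syn3 had 2 to 15 counts in the libraries.

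The 2 gelatinases, which cut denatured collagen and basement membrane, differed from each other. Mmp2 (gelatinase A, chr8:92827291-92853420 in GRCm38, plus strand) read 14.4, 15.5 and 16.3 CPM in control, 32.9, 31.4 and 37.6 in HD-het and 158, 133 and 169 in HD-homo libraries. It was higher in each HD-het library than in any control library and higher again in each HD-homo library. The rise over control cells was 2.21-fold in HD-het cells (log2 1.14 ± 0.10, edgeR adjusted p = 2.7e-06) and 9.95-fold in HD-homo cells (log2 3.31 ± 0.11, edgeR adjusted p = 5e-10), and HD-homo cells were 4.51-fold above HD-het cells (edgeR adjusted p = 6.7e-09). Mmp9 (gelatinase B), an MMP made by activated glia and leukocytes, averaged 1.63 ± 0.946 CPM in control, 0.725 ± 0.108 in HD-het and 1.63 ± 0.209 in HD-homo cells. Control replicate 3, at 0.541 CPM, was below every HD-het library, whereas the other control libraries read 2.08 and 2.26 CPM. Mmp9 was called lower in HD-het than in the control line (edgeR adjusted p = 0.026) and than in HD-homo cells (edgeR adjusted p = 0.025). The first call was lost without control replicate 1 (edgeR adjusted p = 0.096), control replicate 2 (0.12), HD-het replicate 2 (0.078) or HD-het replicate 3 (0.064), and the other without HD-het replicate 2 (0.076), HD-het replicate 3 (0.062) or HD-homo replicate 1 (0.064).

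Mmp14, which encodes the membrane-type enzyme MT1-MMP that cuts fibrillar collagen at the cell surface and activates pro-MMP-2, moved in opposite directions in the HD lines. Its level was 352, 340 and 321 CPM in control, 717, 655 and 614 in HD-het and 227, 198 and 199 in HD-homo libraries. No library of one line overlapped those of another. Mmp14 rose 1.96-fold in HD-het cells (log2 0.97 ± 0.08, edgeR adjusted p = 1.1e-06) and was 1.62-fold lower in HD-homo than in the control line (log2 -0.70 ± 0.08, edgeR adjusted p = 1.4e-05). Per kilobase, Mmp14 made up 78.9% ± 0.647 of the summed Mmp level in control, 78.9% ± 2.40 in HD-het and 48.9% ± 3.27 in HD-homo libraries. The share of Mmp2 was 3.79% ± 0.385, 4.28% ± 0.559 and 37.7% ± 2.50. The ratio of Mmp2 to Mmp14 per kilobase was therefore 0.0481 ± 0.00521 in control, 0.0544 ± 0.00884 in HD-het and 0.776 ± 0.103 in HD-homo cells. Exact two-sided permutation tests of this ratio, which were not planned, gave p = 0.10 for HD-homo against either other line and 0.40 for HD-het against control cells. HD-homo libraries already lay apart from the others in both genes, so the p of 0.10 adds nothing to those values. The summed level of Mmp14 and Mmp2 was 109 ± 4.63, 215 ± 15.4 and 114 ± 8.71 CPM per kilobase, and the sum in HD-homo cells differed from that in control cells by less than 1 SD of its libraries.

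Among the other membrane-type MMPs, Mmp16 (MT3-MMP), an enzyme of neural tissue, and Mmp17 (MT4-MMP), which is anchored by glycosylphosphatidylinositol, had the order of Mmp14. Mmp16 read 16.4, 16.4 and 17.1 CPM in control, 24.1, 25.9 and 24.6 in HD-het and 7.27, 8.97 and 11.6 in HD-homo libraries. Against control cells it was 1.49-fold higher in HD-het cells (edgeR adjusted p = 0.0021) and in HD-homo cells 1.79-fold lower (edgeR adjusted p = 0.00026). Mmp17 read 0.467, 0.327 and 0.541 CPM in control, 8.04, 6.10 and 7.67 in HD-het and 0.153, 0.0947 and 0.268 in HD-homo libraries. HD-het cells were thus the line with an appreciable level, 16.3-fold above control cells (log2 4.03 ± 0.24, edgeR adjusted p = 1.3e-07) and 42.2-fold above HD-homo cells (edgeR adjusted p = 1.6e-08). In HD-homo against control cells Mmp17 was lower as well (log2 -1.38 ± 0.39, edgeR adjusted p = 0.01). Mmp15 (MT2-MMP) rose in both HD lines, from 3.46 ± 0.399 CPM to 5.72 ± 0.366 in HD-het and 6.01 ± 0.767 in HD-homo cells (edgeR adjusted p = 0.00068 and 0.0004). Mmp25 (MT6-MMP), at 0.956 ± 0.0847 CPM in control cells, fell in both, to 0.275 ± 0.0284 and 0.178 ± 0.0857 CPM (edgeR adjusted p = 0.00021 and 4.8e-05). Mmp24 (MT5-MMP), an enzyme of neurons, stayed under 1 CPM in each line's mean and passed the test in no comparison, although without HD-het replicate 3 it had log2 0.94 in HD-het against control cells (edgeR adjusted p = 0.012). Mmp23 was too low to test.

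**Figure D3:**
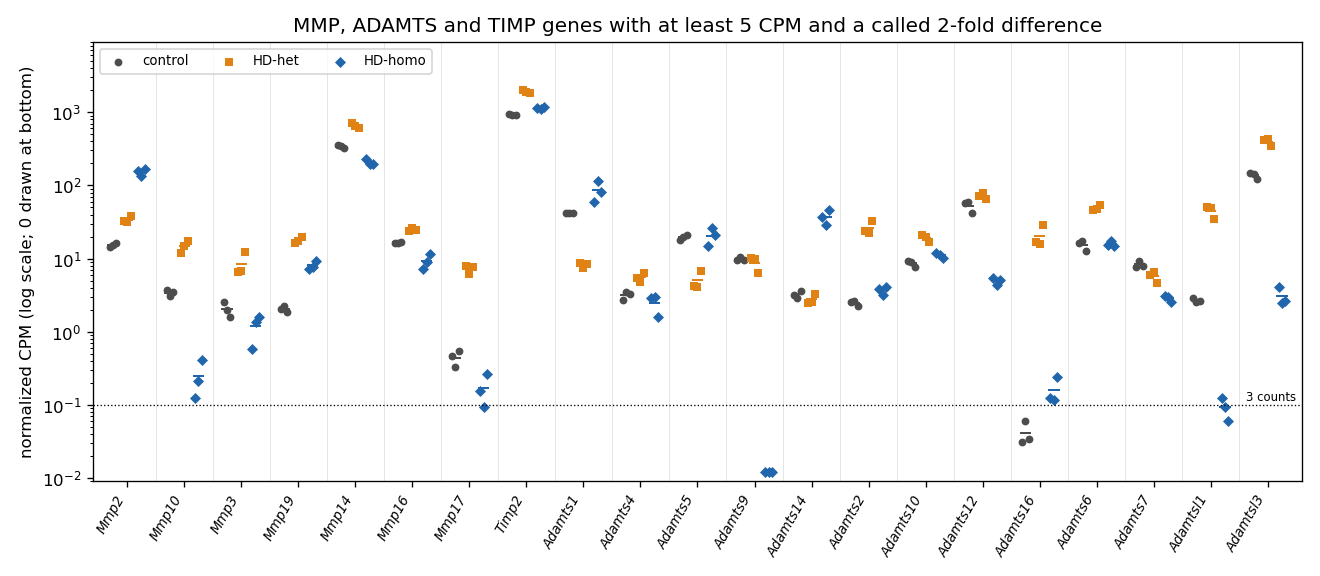
Normalized CPM (y axis, log scale, with 0 drawn at the bottom) of the 21 genes of the family with a mean of at least 5 CPM in 1 line and a called difference of at least 2-fold; points are libraries (3 each of control, HD-het and HD-homo cells), dashes are means and the dotted line is the level of 3 counts. Mmp2 and Adamts14 are highest in HD-homo cells, Adamts1 is lowest in HD-het cells, and Adamts9 lies at 0 in every HD-homo library.

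On chromosome 9, 10 Mmp genes form a cluster, chr9:7272514-7699585 in GRCm38, with the collagenase genes Mmp13, Mmp1a, Mmp1b and Mmp8, the stromelysin genes Mmp3 and Mmp10, and Mmp12, Mmp27, Mmp20 and Mmp7. Genes of this cluster are known to respond to the transcription factor AP-1, so the AP-1 word TGANTCA was searched on both strands from 250 bases before to 50 bases after the gene start in the promoters of RefSeq (GRCm38.p6). It was found in 8 of the 10 cluster genes and in 0 of the 26 other family genes with a promoter in that table, beside 8.97% of all 27025 genes. The words of the 3 cluster genes that were tested are shown with 10 bases on each side, followed by that of Mmp7, which had no read, each on the strand of the gene and with the word in capitals.
Mmp13, chr9:7272469-7272495, plus strand, word starting at -35: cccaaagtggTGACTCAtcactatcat
Mmp3, chr9:7445766-7445792, plus strand, word starting at -46: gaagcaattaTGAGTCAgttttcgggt
Mmp10, chr9:7502269-7502295, plus strand, word starting at -63: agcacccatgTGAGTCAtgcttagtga
Mmp7, chr9:7692017-7692043, plus strand, word starting at -63: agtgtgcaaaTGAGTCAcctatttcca
A match of letters is not a measured binding site, and genes with the same word were found both with and without reads.

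The 3 tested genes of the cluster were called highest in HD-het cells, a pattern of 22.7% of all tested genes. Mmp13 reached a mean of 1 CPM in HD-het cells alone. Mmp10 (stromelysin 2) read 3.67, 3.06 and 3.48 CPM in control, 12.1, 14.6 and 17.3 in HD-het and 0.123, 0.213 and 0.418 in HD-homo libraries. It was 4.31-fold higher in HD-het (log2 2.11 ± 0.18, edgeR adjusted p = 2.3e-06) and 13.6-fold lower in HD-homo than in the control line (log2 -3.75 ± 0.29, edgeR adjusted p = 8.1e-07). Mmp3 (stromelysin 1), which cuts proteoglycans and activates other MMPs, read 2.55, 1.99 and 1.59 CPM in control, 6.46, 6.83 and 12.2 in HD-het and 0.582, 1.37 and 1.61 in HD-homo libraries. Control and HD-homo libraries overlapped, and all HD-het libraries were above both. The rise in HD-het over control cells was 4.15-fold (log2 2.05 ± 0.32, edgeR adjusted p = 0.00018), and HD-homo against control cells had log2 -0.77 ± 0.37 (edgeR adjusted p = 0.098). The last value passed the threshold in DESeq2 (adjusted p = 0.049) and, just, in edgeR without HD-het replicate 3 (adjusted p = 0.050). Mmp13 (collagenase 3) averaged 0.190 ± 0.143, 1.72 ± 1.08 and 0.605 ± 0.536 CPM in control, HD-het and HD-homo libraries. It was called higher in HD-het than in the control line (edgeR adjusted p = 0.0025) and lower in HD-homo than in the HD-het line (edgeR adjusted p = 0.034), although 1 HD-homo library, at 1.22 CPM, lay above the lowest HD-het library at 0.902 CPM. Without HD-het replicate 3, at 2.94 CPM, the difference of HD-homo from HD-het cells was log2 -0.90 (edgeR adjusted p = 0.19), and without HD-homo replicate 1 or 2 its adjusted p was 0.11. In HD-homo against control cells Mmp13 had log2 1.62 ± 0.83 (edgeR adjusted p = 0.11), and DESeq2 called it (adjusted p = 0.042). The other 7 genes of the cluster were not tested: Mmp12 reached 11 counts in 1 HD-het library, Mmp8 5 counts, Mmp1b and Mmp27 2 counts, and Mmp1a, Mmp20 and Mmp7 had none. Mmp3 and Mmp10 share 8.39% and 8.37% of their 50-base transcript words with each other, so that a small part of their counts could be split between them.

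**Figure D4:**
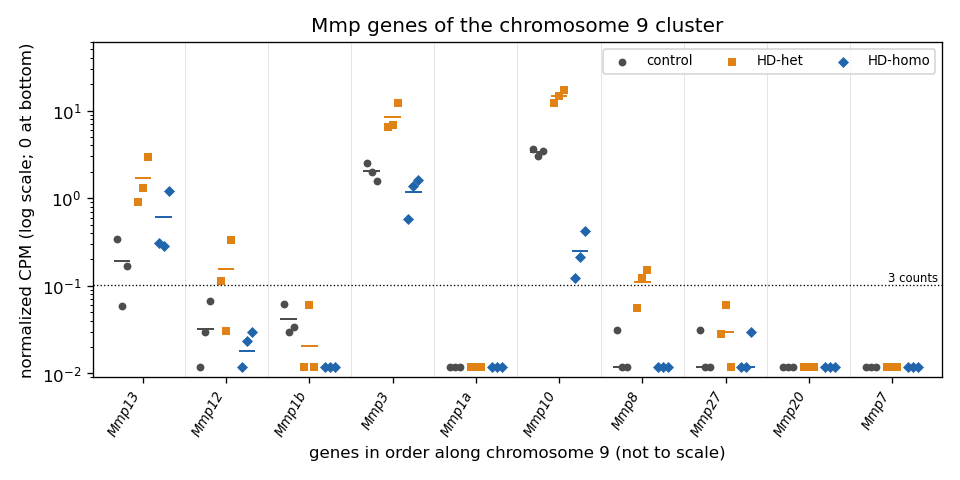
Normalized CPM (y axis, log scale, with 0 drawn at the bottom) of the 10 Mmp genes of the chromosome 9 cluster, in the order in which they lie (x axis, not to scale); points are libraries of control, HD-het and HD-homo cells, dashes are means and the dotted line is the level of 3 counts. Mmp13, Mmp3 and Mmp10 lie above that line in HD-het cells in every library, and Mmp1a, Mmp20 and Mmp7 lie at 0.

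Factors of the AP-1, ETS and RUNX families, which act on MMP promoters, did not share 1 direction. All 13 were tested. HD-het against control cells had 3 called higher and 5 lower, and HD-homo against control cells had 2 higher and 5 lower, which is 61.5% and 53.8% of the factors beside 65.1% and 58.6% of all tested genes. Junb and Runx1 had the largest increases in HD-homo cells (log2 0.85 and 0.41, edgeR adjusted p = 0.0047 and 0.011), and Etv4 and Etv5 the largest decreases (log2 -2.19 and -1.41, edgeR adjusted p = 4.3e-06 and 2.9e-06). Named after their values were seen, the AP-1 subunit Fos was higher in HD-het than in the control line (log2 1.17, edgeR adjusted p = 0.0023) at 1.51 and 3.37 CPM, and Fosl1 was lower there (log2 -0.89, edgeR adjusted p = 2.7e-06) at 228 CPM in control and 123 CPM in HD-het cells.

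Outside the cluster, Mmp19, a secreted MMP that cuts basement membrane proteins, read 2.05, 2.23 and 1.86 CPM in control, 16.3, 17.7 and 19.5 in HD-het and 7.27, 7.79 and 9.31 in HD-homo libraries. It was higher in both HD lines, 8.70-fold in HD-het (log2 3.12 ± 0.13, edgeR adjusted p = 1.2e-08) and 3.97-fold in HD-homo cells (log2 1.98 ± 0.14, edgeR adjusted p = 2.9e-07). Exons of Tmem198b on the other strand overlap 22.3% of the Mmp19 exon bases, and no source says whether the counting used strand. Tmem198b read 42.6 to 45.5 CPM in control, 40.2 to 41.7 in HD-het and 19.98 to 26.2 in HD-homo cells. Whether its reads entered the Mmp19 counts was not tested. Mmp28 (epilysin) averaged 7.11 ± 0.231, 11.7 ± 1.07 and 6.43 ± 2.16 CPM and rose 1.64-fold in HD-het over control cells (edgeR adjusted p = 0.0051). In HD-homo against control cells it had log2 -0.15 ± 0.19 (edgeR adjusted p = 0.52), and without HD-homo replicate 3, which read 8.92 CPM, -0.46 (edgeR adjusted p = 0.0058). Mmp11 (stromelysin 3), which furin activates inside the cell, averaged 27.2 ± 0.621, 29.8 ± 2.63 and 19.1 ± 1.03 CPM. It was 1.43-fold lower in HD-homo than in the control line (edgeR adjusted p = 0.0002) and not called in HD-het against control cells (log2 0.13 ± 0.08, edgeR adjusted p = 0.16), where it passed without HD-het replicate 3 (edgeR adjusted p = 0.049). Mmp21, with at most 1 count in a library, was not tested.

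The ADAMTS proteoglycanases, also called aggrecanases or hyalectanases, divided into opposite patterns. Adamts1 and Adamts5, which cut versican and aggrecan, are neighbours on chromosome 16 on the same strand with 53059 bases between them, and both were low in HD-het cells. Adamts1 read 41.9, 42.6 and 41.7 CPM in control, 8.57, 7.38 and 8.54 in HD-het and 59.5, 116 and 82.4 in HD-homo libraries. It was 5.15-fold lower in HD-het (log2 -2.36 ± 0.20, edgeR adjusted p = 1.9e-06) and 2.04-fold higher in HD-homo than in the control line (log2 1.03 ± 0.18, edgeR adjusted p = 0.00051). Adamts5, the main aggrecanase of mouse cartilage, read 18.1, 19.7 and 20.7 CPM in control, 4.17, 4.15 and 6.83 in HD-het and 14.8, 25.8 and 20.9 in HD-homo libraries. The control range lay within that of HD-homo cells (log2 0.07 ± 0.20, edgeR adjusted p = 0.77), and HD-het cells were 3.87-fold below control cells (log2 -1.95 ± 0.22, edgeR adjusted p = 1.6e-05) and 4.06-fold below HD-homo cells (edgeR adjusted p = 7.9e-06).

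Adamts9, a protease that cuts versican and serves in secretion and at the base of cilia, had 305, 350 and 283 counts in control, 359, 328 and 214 in HD-het and 0 in each HD-homo library. In CPM these were 9.49, 10.4 and 9.57 in control and 10.1, 9.999 and 6.41 in HD-het cells. Against the floor of 3 counts per library, its level in HD-homo libraries was at least 117-fold lower than in the control line (edgeR adjusted p = 7.2e-08) and at least 105-fold lower than in the HD-het line (edgeR adjusted p = 6e-08). The gene lies at chr6:92772699-92943492 in GRCm38 on the minus strand, with 40 exons in its longest coding transcript. HD-het and control cells were not distinguished (log2 -0.15 ± 0.17, edgeR adjusted p = 0.46). Adamts8, at 0.171 ± 0.0750 CPM in control and 0.883 ± 0.223 CPM in HD-het cells, also had no read in HD-homo cells, and it was called higher in HD-het (edgeR adjusted p = 0.00043) and lower in HD-homo than in the control line (edgeR adjusted p = 0.0021). Adamts8 passed the filter on low counts only through its HD-het libraries, so these calls are not independent of the pattern. Its level in HD-homo cells was at least 10.49-fold below that in HD-het cells. Adamts8 and Adamts15 are neighbours on chromosome 9 with 20109 bases between them, and Adamts15 had at most 2 counts. Adamts4, an aggrecanase of brain and cartilage, read 2.74, 3.51 and 3.25 CPM in control, 5.44, 4.79 and 6.38 in HD-het and 2.88, 2.96 and 1.58 in HD-homo libraries. All HD-het libraries were above the others, by 1.75-fold over control cells (edgeR adjusted p = 0.0059) and 2.24-fold over HD-homo cells (edgeR adjusted p = 0.00051). Adamts20 had 1 count in all.

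The procollagen N-propeptidases, which remove the amino-terminal propeptide so that collagen fibrils can form, were high in different lines. Adamts2 read 2.55, 2.62 and 2.23 CPM in control, 24.0, 22.2 and 33.0 in HD-het and 3.86, 3.15 and 4.09 in HD-homo libraries. HD-het cells stood 10.7-fold above control cells (log2 3.42 ± 0.17, edgeR adjusted p = 3.8e-08) and 7.14-fold above HD-homo cells (edgeR adjusted p = 4.4e-08). In HD-homo against control cells Adamts2 had log2 0.57 ± 0.19 (edgeR adjusted p = 0.022), a call lost without control replicate 3 (edgeR adjusted p = 0.072), HD-homo replicate 1 (0.056) or HD-homo replicate 3 (0.072). Adamts14 read 3.20, 2.88 and 3.65 CPM in control, 2.51, 2.56 and 3.29 in HD-het and 37.0, 28.4 and 46.8 in HD-homo libraries. Control and HD-het libraries overlapped, and HD-homo cells stood 11.5-fold above control cells (log2 3.53 ± 0.19, edgeR adjusted p = 3.6e-08) and 13.4-fold above HD-het cells (edgeR adjusted p = 1.8e-08). Adamts3, the propeptidase known for procollagen II and for the lymphatic growth factor VEGF-C, had at most 14 counts and was not tested. The level of the collagen gene Col1a2 was 73.4 CPM in control, 3.15 CPM in HD-het and 1494 CPM in HD-homo cells, while that of Col1a1 was 2465, 7097 and 4234 CPM.

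In the remaining ADAMTS genes HD-het cells were called highest for 4 of the 6 tested, beside 22.7% of all tested genes. Of these, Adamts16 passed the filter on low counts only through its HD-het libraries. Adamts16, a protease of kidney and gonad development, had 1, 2 and 1 counts in control, 606, 512 and 949 in HD-het and 4, 5 and 8 in HD-homo libraries. The HD-het level was 17.1, 15.6 and 28.4 CPM, at least 215-fold higher than in the control line (edgeR adjusted p = 2.2e-08) and 127-fold higher than in HD-homo cells (edgeR adjusted p = 1.1e-08). HD-homo against control cells was not called (edgeR adjusted p = 0.12), although DESeq2 called it (adjusted p = 0.041), as did edgeR without HD-het replicate 3 (adjusted p = 0.016). The gene lies at chr13:70727802-70841811 in GRCm38 on the minus strand. Adamts6, which acts on matrix microfibrils, read 16.4, 17.4 and 12.7 CPM in control, 45.6, 47.3 and 53.4 in HD-het and 15.5, 17.7 and 14.8 in HD-homo libraries. Control and HD-homo libraries overlapped (log2 0.04 ± 0.12, edgeR adjusted p = 0.77), and HD-het cells were 3.14-fold above control cells (edgeR adjusted p = 5.1e-07). Its close relative Adamts10, which binds fibrillin, read 9.30, 8.95 and 7.67 CPM in control, 21.0, 19.5 and 16.95 in HD-het and 12.0, 11.3 and 10.1 in HD-homo libraries. It was 2.22-fold higher in HD-het (edgeR adjusted p = 5.1e-06) and 1.29-fold higher in HD-homo than in the control line (edgeR adjusted p = 0.016), and the latter call was lost without control replicate 3 (edgeR adjusted p = 0.068) or HD-homo replicate 1 (0.057).

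Adamts12 and Adamts7, related proteases that cut cartilage oligomeric matrix protein, were lowest in HD-homo cells. Adamts12 read 57.1, 58.9 and 42.0 CPM in control, 72.2, 78.4 and 65.0 in HD-het and 5.49, 4.31 and 5.07 in HD-homo libraries. It was 10.6-fold lower in HD-homo than in the control line (log2 -3.42 ± 0.15, edgeR adjusted p = 6e-09) and 1.36-fold higher in HD-het than in the control line (log2 0.45 ± 0.12, edgeR adjusted p = 0.0082). Adamts7 read 7.75, 9.25 and 8.01 CPM in control, 5.95, 6.58 and 4.64 in HD-het and 3.04, 2.98 and 2.54 in HD-homo libraries. It fell from line to line without overlap, 1.46-fold in HD-het (edgeR adjusted p = 0.0058) and 2.92-fold in HD-homo against control cells (edgeR adjusted p = 5e-06). Adamts13, the protease that cuts von Willebrand factor, averaged 3.94 ± 0.528, 3.46 ± 0.0426 and 3.02 ± 0.158 CPM. Its call in HD-homo against control cells (log2 -0.38 ± 0.13, edgeR adjusted p = 0.029) was lost in 6 of the 17 alternative settings, with adjusted p values of 0.052 to 0.11 there. Adamts17, Adamts18 and Adamts19 had at most 9, 8 and 1 counts in a library and were not tested.

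The ADAMTSL genes held the largest differences between the HD lines among genes of the family with reads in every library. Adamtsl3, which encodes a matrix protein related to punctin (chr7:82335694-82614450 in GRCm38, plus strand), read 148, 143 and 123 CPM in control, 415, 431 and 342 in HD-het and 4.14, 2.46 and 2.59 in HD-homo libraries. It was the fifth most abundant gene of the family per kilobase in control and HD-het cells and ranked 25 in HD-homo cells. The level rose 2.87-fold in HD-het (log2 1.52 ± 0.13, edgeR adjusted p = 2e-06) and was 45-fold lower in HD-homo than in the control line (log2 -5.51 ± 0.17, edgeR adjusted p = 4.5e-10). Adamtsl1 (punctin) read 2.89, 2.53 and 2.67 CPM in control, 50.4, 49.4 and 34.5 in HD-het and 0.123, 0.0947 and 0.0596 in HD-homo libraries. It was 16.6-fold higher in HD-het (log2 4.05 ± 0.16, edgeR adjusted p = 6.8e-09) and 29.2-fold lower in HD-homo than in the control line (log2 -4.81 ± 0.34, edgeR adjusted p = 3.6e-07), and the HD lines differed 485-fold (edgeR adjusted p = 1.6e-10). Adamtsl2, which binds fibrillin and the latent TGF-beta complex, averaged 0.289 ± 0.104, 2.66 ± 0.696 and 0.106 ± 0.0528 CPM. This gene passed the filter on low counts only through its HD-het libraries. It was 9.19-fold higher in HD-het than in the control line (edgeR adjusted p = 7.4e-06), and its call in HD-homo against control cells (log2 -1.49 ± 0.54, edgeR adjusted p = 0.033) was lost without control replicate 1 (edgeR adjusted p = 0.093), control replicate 2 (0.11), HD-homo replicate 1 (0.054) or HD-homo replicate 2 (0.13).

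Adamtsl4 and Adamtsl5, both known to bind fibrillin microfibrils, had another pattern. Adamtsl5 averaged 9.70 ± 0.843 CPM in control, 10.9 ± 1.43 in HD-het and 19.3 ± 1.68 in HD-homo cells, a rise of 1.99-fold in HD-homo against control cells (log2 0.99 ± 0.11, edgeR adjusted p = 1.9e-05). Adamtsl4 averaged 24.3 ± 1.61, 26.1 ± 2.83 and 33.1 ± 4.75 CPM and rose 1.36-fold in HD-homo against control cells (edgeR adjusted p = 0.0053). Its difference from HD-het cells (log2 0.34 ± 0.11, edgeR adjusted p = 0.016) was lost without HD-het replicate 3 (edgeR adjusted p = 0.064) or HD-homo replicate 3 (0.062). Thsd4, which encodes a further ADAMTS-like protein under another name, had the order of Adamtsl1, with 2.17, 15.8 and 0.0880 CPM in control, HD-het and HD-homo libraries (log2 2.87 and -4.50 against control cells, edgeR adjusted p = 1.3e-07 and 4.7e-07). Papln, the other such gene, was too low to test.

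Genes that act on these enzymes or are cut by them were read from lists of genes, and the counts of calls stand beside the shares of all tested genes given above (65.1% in HD-het and 58.6% in HD-homo against control cells). Of 12 genes of the plasminogen system and the proprotein convertases, which cut MMP and ADAMTS proforms, 9 were tested; 6 were called higher and 1 lower in HD-het against control cells, and 3 higher and 1 lower in HD-homo against control cells, where 44.4% of the list was called. Serpine2, an inhibitor of plasmin and thrombin, was at 2.12, 103 and 5.50 CPM in control, HD-het and HD-homo libraries (log2 5.60 and 1.37 against control cells, edgeR adjusted p = 4.1e-09 and 0.00029). Pcsk6, a convertase, rose in HD-homo cells (log2 0.77, edgeR adjusted p = 0.00011), and Furin, the convertase that activates Mmp11 and Mmp14, fell there (log2 -0.81, edgeR adjusted p = 2.6e-06). Of 12 cell surface regulators and clearance receptors 8 were tested, with 5 called higher and 1 lower in HD-het and 4 higher and 2 lower in HD-homo against control cells. Reck, a membrane-anchored MMP inhibitor, was at 3.86, 7.84 and 7.99 CPM and higher in both HD lines (log2 1.02 and 1.05, edgeR adjusted p = 0.00014 in each). Cav1, a caveolar protein, rose in HD-homo cells (log2 0.65, edgeR adjusted p = 0.0014). Lrp1, the receptor that takes up MMPs, ADAMTS proteases and TIMPs, was at 636, 788 and 366 CPM and fell in HD-homo cells (log2 -0.80, edgeR adjusted p = 2.8e-05), as did Spock2, a testican (log2 -0.88, edgeR adjusted p = 0.037).

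Of 17 ADAM and astacin proteases 12 were tested, and 9 were called higher and 3 lower in HD-het and 4 higher and 5 lower in HD-homo against control cells. Among those with at least 1 CPM in 1 line, Adam8 and Adam19 had the largest increases in HD-homo cells (log2 3.05 and 2.93, edgeR adjusted p = 1.5e-08 and 5.5e-07), and Adam12 and Adam15 the largest decreases (log2 -2.53 and -1.06, edgeR adjusted p = 1.9e-05 and 3.3e-08). Of 21 matrix substrates 14 were tested, and 13 were called in HD-het against control cells (8 higher, 5 lower) and 12 in HD-homo against control cells (8 higher, 4 lower). Bgn, which encodes the small proteoglycan biglycan, was at 5.39, 1319 and 899 CPM in control, HD-het and HD-homo libraries (log2 7.37 in HD-homo cells, edgeR adjusted p = 2.7e-11), and Fbn2, which encodes fibrillin-2, at 0.535, 3.23 and 74.2 CPM (log2 7.11, edgeR adjusted p = 6.2e-09). Hapln4, a link protein, and Tnc, which encodes tenascin-C, fell in HD-homo cells (log2 -3.92 and -2.15, edgeR adjusted p = 1.8e-07 and 2.6e-07). Named after their values were seen, the aggrecanase substrates Acan and Vcan went opposite ways in HD-homo cells. Acan, which encodes aggrecan, was at 3.28, 1.67 and 76.3 CPM (log2 4.53 in HD-homo against control cells, edgeR adjusted p = 6.8e-08), and Vcan, which encodes versican, at 150, 54.5 and 54.5 CPM (log2 -1.46, edgeR adjusted p = 4.4e-07).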

How the data were processed

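RNA-seq was analysed for 3 lines with 3 libraries each (control, HD-het, HD-homo). The deposited values are whole-number counts per gene symbol, which the authors made from strand-specific poly(A) libraries. The submitters' processing notes name cutadapt, Bowtie 1.1.2, RSEM 1.3.0, DESeq2, GRCm38.p5 and mm10 with no role, and the annotation, the use of strand and any rounding are not given in the sources used here. The paper names no differential expression test.

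They were fitted with edgeR 4.0.16 under R 4.3.3 (filterByExpr with minimum count 10, TMM, glmQLFit and glmQLFTest on all 9 libraries with 1 mean per line). Benjamini-Hochberg adjustment ran over the 13508 genes of a comparison, with 0.05 as threshold, and SE is the log2 fold change over the root of the F statistic. Folds are ratios of mean normalized CPM. Where every library of a line had 3 counts or fewer, that floor per library replaced the mean and the fold is a bound. Pairs of libraries of 1 line differed by 2.20 to 39.2 times the counting variance. Lengths and coordinates are of GENCODE (GRCm38), and promoters of RefSeq (GRCm38.p6), which listed 36 of the 51 genes. The ratio of summed Timp to summed Mmp level and, unplanned, that of Mmp2 to Mmp14 were tested by exact permutation. The pipeline was tested on simulated data.

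Genes with at least 1 CPM in 1 line were named, and those with at least 5 CPM and a called 2-fold difference were given by library. From each related list the 2 largest called changes each way in HD-homo against control cells were named. The members and lists were chosen with earlier results of these data known. Alternatives were DESeq2 1.42.0, other size factors, filters and fits, a replicate block and leaving out each library.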

Additional observations from a re-analysis of the deposited data

Results flagged for a closer look

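Of the 35 tested genes, 10 were called in opposite directions in the HD lines against control cells, beside 14.5% of all tested genes, and the difference between the HD lines was tested in each. The lines were compared with the same control libraries. Adamts8 (6, 3 and 7 counts in control libraries) and Adamtsl2 (11, 12 and 5) passed the filter on low counts through their HD-het libraries. The count of 10 is therefore not independent of the pattern. The log2 fold change of HD-homo against HD-het cells was -8.87 for Adamtsl1, -7.91 for Adamts8, -7.03 for Adamtsl3, -5.86 for Mmp10, -5.41 for Mmp17, -4.66 for Adamtsl2, -3.86 for Adamts12, -1.67 for Mmp14 and -1.42 for Mmp16, all higher in HD-het and lower in HD-homo than in the control line. The value of Adamts8 depends on the prior count of the fit, since HD-homo cells had no read. Adamts1 had the opposite arrangement, with a log2 fold change of 3.40.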

How the results depend on the processing

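Counts of called genes of the family stayed within 1.5 times the main count in every alternative. Leaving out each library gave 20 to 26 calls in HD-homo against control cells, 26 to 29 in HD-het against control cells and 27 to 31 in HD-homo against HD-het cells. The count called highest in HD-het cells was not planned, and it and its alternatives were chosen after seeing the data. It was 20 to 22 without each library and 13 with at least 10 counts in every library, where fewer genes are tested. The Timp to Mmp ratio in control cells was 5.45 with mean transcript lengths. Log2 values changed sign in 7 comparisons, none of them called with all libraries. Over all alternative settings, log2 values in HD-homo against control cells ranged from -0.127 to 0.2602 for Adamts5 and -0.07995 to 0.1355 for Adamts6. They ranged from -0.426 to 0.2842 for Mmp9 and -0.3842 to 0.2077 for Timp3. In HD-het against control cells the range for Adamts9 was -0.2596 to 0.03484. In HD-homo against HD-het cells the ranges were -0.02975 to 0.1542 for Mmp15 and -0.5441 to 0.06722 for Mmp24. The replicate block gave 0.03214 for Mmp9 and -0.03399 for Timp3 in HD-homo against control cells. The causes were not tested. With the replicate number as a block, 26, 27 and 30 genes were called in HD-homo against control, HD-het against control and HD-homo against HD-het cells, with Adamts16 (adjusted p = 0.015) and Mmp13 (adjusted p = 0.044) gained in the first. Same-numbered libraries deviated together with mean correlations of 0.0213, 0.109 and 0.0809 across genes, with 0, 2 and 2 of 3 pairs over 0.1. The labels give such libraries only a number in common, and what else they share was not tested. In the first 2 comparisons 6 of 6 libraries correlated best with their own number, and in the last 4 of 6. Each pair is counted from both lines, and deviations were taken from the mean of each line, so these matches are not independent. The highest level of the 16 untested genes was 0.395 CPM, and 4 of them had no read. Whether greater depth would bring these genes past the filter was not tested.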
